A study of Mus musculus with 15 samples.

Results

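Fut9, Grik3, Rims2 and Rnf17 are 4 protein-coding genes with many listed SAM68 binding sites in mouse embryonic stem cells and day 3 embryoid bodies. In these genes no site was listed for embryoid bodies at day 10. They were chosen for this pattern of site numbers, so the numbers themselves describe the choice and were not tested. They are 4 of the 7949 genes with a site on any day, and hold 272 of the 132293 sites listed. SAM68 (Khdrbs1) was mapped by iCLIP2, in which ultraviolet light fixes the protein to RNA and the stop of reverse transcription marks the crosslinked nucleotide.

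All samples came from the single stem cell line E14, with no genetic change named in the labels. Day 0 cells were grown without feeders on gelatin, with leukaemia inhibitory factor and inhibitors of GSK and MEK. Day 3 embryoid bodies, aggregates of differentiating stem cells, were formed in hanging drops in medium with serum, and day 10 bodies were plated directly in spheroid plates, so time and culture format cannot be told apart. Each day had 5 libraries, 15 in all. The deposited values are 1 list of binding sites of 5 nt per day, 29740 sites on day 0, 28266 on day 3 and 74287 on day 10. The lists hold no values for single libraries and no crosslink counts, so depth and replicate spread are unknown and the days were compared without a test. All intervals are exact 95% intervals for counting error alone, and they treat the sites of a gene as independent, which they are not.

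SAM68 belongs to the STAR family of RNA-binding proteins. It binds A- and U-rich RNA, much of it in unspliced transcripts, and is known for regulating splicing in the nervous system and in male germ cells. Fut9 encodes the fucosyltransferase that makes the Lewis x glycan, the surface antigen of mouse stem cells known as SSEA-1. Grik3 encodes the GluK3 subunit of kainate-type glutamate receptors. Rims2 encodes RIM2, a scaffold of the presynaptic active zone that binds Rab3 proteins. Rnf17 encodes a RING finger and Tudor domain protein of male germ cells.

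Fut9 (ENSMUSG00000055373) lies on the minus strand of chromosome 4, and its RefSeq span in GRCm38.p6 runs from 25609333 to 25800003, 191 kb. Grik3 (ENSMUSG00000001985) lies on the plus strand of the same chromosome, 99.7 Mb away, from 125490259 to 125714173, 224 kb. Rims2 (ENSMUSG00000037386) is the longest, with 486 kb on the plus strand of chromosome 15, from 39198286 to 39684372. Rnf17 (ENSMUSG00000000365) covers 122 kb on the plus strand of chromosome 14, from 56402650 to 56525032. All 4 are long beside the median span of 37.5 kb for named protein-coding genes with a site, and beside the median of 90.5 kb for genes with sites on day 0 and day 3 and at least 20 over both. Exons and introns, and the bases at the sites, were not analysed here.

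Fut9 held 37 sites on day 0, 33 on day 3 and 0 on day 10. Per 10000 sites of each list this is 12.4 and 11.7, and the share on day 3 was 0.938 times that on day 0 (0.569 to 1.54). Rims2 held 35, 35 and 0 sites, or 11.8 and 12.4 per 10000, a ratio of 1.05 (0.639 to 1.73). For these 2 genes the day 3 list held about the same share as the day 0 list, with intervals that reach from well below to well above equality.

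Grik3 held 36, 20 and 0 sites. Its share per 10000 was 12.1 on day 0 and 7.08 on day 3, a ratio of 0.585 (0.321 to 1.04). Rnf17 held 51, 25 and 0 sites, 17.1 and 8.84 per 10000, and the day 3 share was 0.516 times the day 0 share (0.306 to 0.848). Rnf17 was the one member whose interval lay clear of equality. Of all 724 genes that had 20 or more sites over both days, 17.1% had an interval below equality and 34.0% an interval clear of it in either direction. Since the members were chosen partly on these numbers, nothing is read from their count. Summed over the 4 genes, 159 sites were listed for day 0 and 113 for day 3, which is 0.748 times the day 0 share (0.582 to 0.958).

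**Figure D1:**
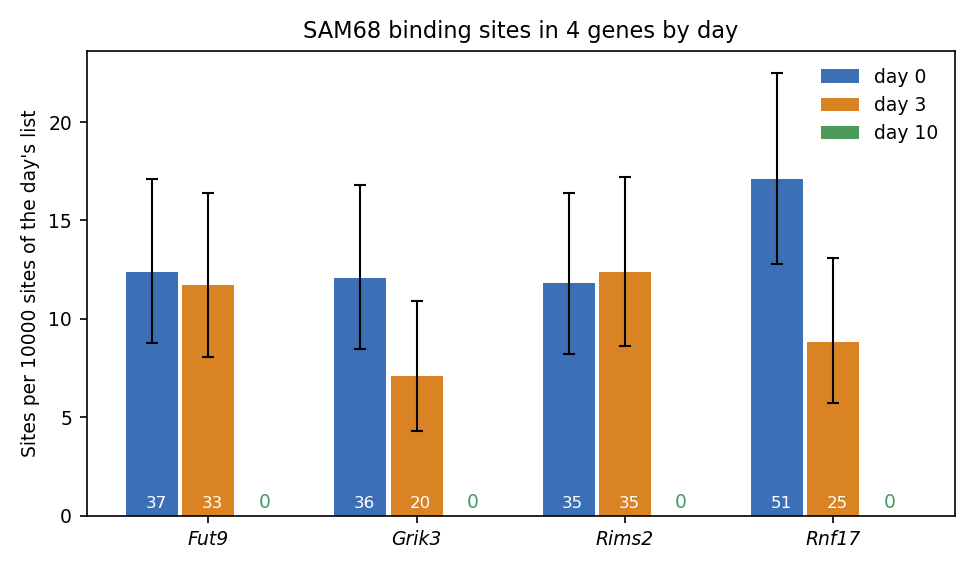
Bars give the sites in each gene per 10000 sites of the day's list (vertical axis) for the 4 genes, with the number of sites printed in each bar and exact 95% counting intervals as error bars. Fut9 and Rims2 stand at nearly the same height on day 0 and day 3, Grik3 and Rnf17 are lower on day 3, and all 4 genes are listed at 0 on day 10.

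Per length of gene, Rnf17 was the most densely covered on day 0, with 41.7 sites per 100 kb (31.0 to 54.8). Fut9 followed with 19.4 (13.7 to 26.7) and Grik3 with 16.1 (11.3 to 22.3), 2 densities whose intervals overlap, and Rims2 was the sparsest with 7.20 (5.02 to 10.0). On day 3 the densities were 20.4 (13.2 to 30.2) in Rnf17, 17.3 (11.9 to 24.3) in Fut9, 8.93 (5.46 to 13.8) in Grik3 and 7.20 (5.02 to 10.0) in Rims2. On day 3 the intervals of neighbours in this order overlapped throughout, and that of Grik3 also overlapped that of Rnf17. By number of sites, Rnf17 ranked 44 of 5056 genes on day 0 and Fut9, Grik3 and Rims2 ranked 97, 103 and 106. On day 3 Rims2 ranked 93, Fut9 102, Rnf17 177 and Grik3 259 of 5034.

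No site of another gene lay inside the 4 spans on any day. RefSeq places no other gene across Fut9, and 3 others across Grik3, 1 across Rims2 and 3 across Rnf17, all of them non-coding, none with a site under its symbol. In all 3 lists the sites carry numbers that run in order of position on each strand of each chromosome, with numbers skipped: 42.1% of numbers appear on day 0, 40.5% on day 3 and 54.2% on day 10. What the skipped numbers stood for is not given in the sources used here. On day 10, the listed sites on either side of Fut9 on its strand, in Ufl1 at 328 kb and Manea at 530 kb from the span and named here for their place, have consecutive numbers, with 0 skipped between them. Over the corresponding stretches the day 10 list skipped 17 numbers around Grik3, 8 around Rims2 and 7 around Rnf17, each stretch reaching to the next listed site outside the gene. A day 10 value of 0 thus means that no site is listed. Whether any skipped number lay inside Grik3, Rims2 or Rnf17 on day 10 is not known.

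Inside the genes on the earlier days, numbers were skipped as well. Between its first and last site Fut9 had 30 skipped numbers on day 0 and 31 on day 3, Grik3 36 and 38, Rims2 52 and 53, and Rnf17 33 and 20. In Rims2, the listed sites were 40.2% of the numbers on day 0 and 39.8% on day 3, and in Rnf17 60.7% and 55.6%. In Grik3 the listed share was 50.0% on day 0 and 34.5% on day 3, while the numbers skipped hardly differed.

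Other genes around the members did hold day 10 sites. Within 1 Mb on either side, on both strands, the lists held 33, 35 and 69 sites around Grik3 on day 0, day 3 and day 10, and 30, 40 and 93 around Rnf17. Around Rims2 they held 2, 3 and 29 sites, and the gene there with most day 10 sites over its whole length was Zfpm2, a cofactor of GATA factors, with 0, 0 and 144. On the strand of Rims2, the nearest listed day 10 sites lay 978 kb beyond the span, in Zfpm2, and 3317 kb from it on the other side. The surroundings of Fut9 were nearly empty, with 3, 2 and 8 sites.

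The positions of the sites were not used in the choice of the genes. How many sites meet one of the other day still depends on the number listed for that day, which the choice did use. Of the 37 day 0 sites in Fut9, 8 shared at least 1 nt with a day 3 site, 21.6% (9.83 to 38.2). In Grik3 the number was 6 of 36, 16.7% (6.37 to 32.8), in Rims2 9 of 35, 25.7% (12.5 to 43.3), and in Rnf17 5 of 51, 9.80% (3.26 to 21.4). Over the 4 genes 28 of 159 day 0 sites were met, 17.6% (12.0 to 24.4), beside 19.4% of the 26591 day 0 sites in all genes with sites on both days. The members' share thus lay close to the background, and most of their day 3 sites fell on nucleotides that were not listed on day 0.

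Seen from day 3, 8 of 33 sites in Fut9 were met by a day 0 site (24.2%, 11.1 to 42.3), 6 of 20 in Grik3 (30.0%, 11.9 to 54.3), 9 of 35 in Rims2 (25.7%, 12.5 to 43.3) and 5 of 25 in Rnf17 (20.0%, 6.83 to 40.7). Together this was 28 of 113, 24.8% (17.1 to 33.8), beside 20.5% of the 25128 day 3 sites in all genes with sites on both days. Among the 588 genes with sites on both days, at least 20 over both and at least 10 on day 0, the median share of day 0 sites met was 18.3%, with quartiles of 10.7% and 27.8%. In this set 176 genes had a higher share than Rims2, 227 than Fut9, 315 than Grik3 and 467 than Rnf17. The set was not matched for the ratio of day 3 to day 0 sites, which was lower in Grik3 and Rnf17 than in Fut9 and Rims2. These ranks therefore also reflect the numbers of sites. The Rnf17 value depended on the overlap rule, at 5.88% for identical positions, 15.7% for centres at most 10 nt apart and 17.6% for at most 50 nt.

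**Figure D2:**
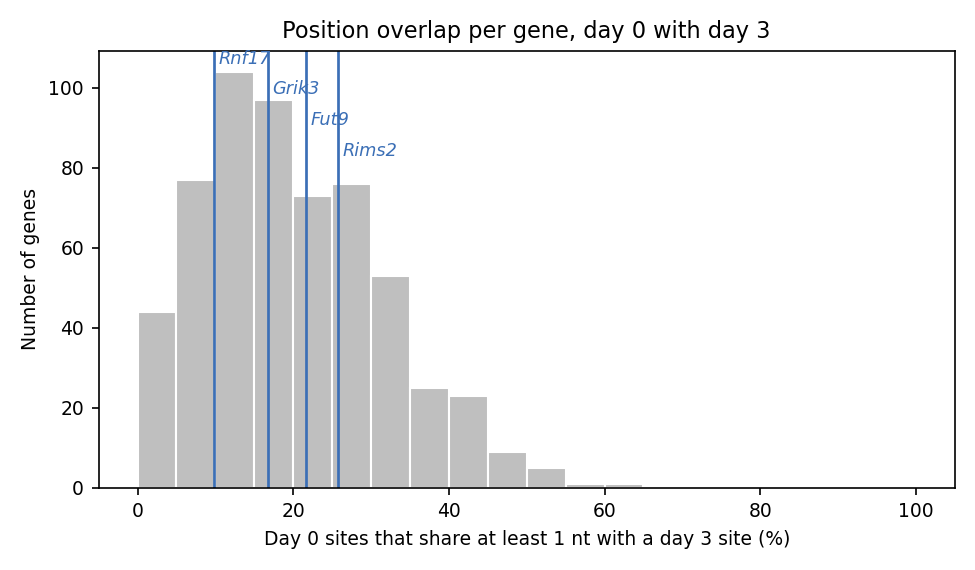
The histogram counts the 588 genes (vertical axis) by the percentage of their day 0 sites that share at least 1 nt with a day 3 site (horizontal axis), and vertical lines mark the 4 genes. Rnf17 at 9.80% falls below the lower quartile of 10.7%, and Grik3, Fut9 and Rims2 lie between the quartiles. The percentage also depends on how many day 3 sites a gene has, for which the genes were not matched.

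By the rule of at least 1 shared nt, sites that met could be offset by at most 4 nt. Of the 28 shared day 0 sites, 17 had exactly the same position on day 3, beside 2409 of 5160 in all genes with sites on both days. In Rims2 these were the 6 sites centred at 39206823, 39269351, 39356926, 39370971, 39374783 and 39598447 of chromosome 15. The 4 in Fut9 were centred at 25675706, 25690702, 25777073 and 25787084 of chromosome 4. The 4 in Grik3 were at 125523474, 125524795, 125645121 and 125655269 of the same chromosome, and the 3 in Rnf17 at 56457055, 56489942 and 56494753 of chromosome 14. The other shared sites were offset by between 1 and 4 nt, as in Fut9, where the day 0 site at 25674396 met a day 3 site at 25674400.

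Of the day 0 sites that did not meet a day 3 site, 8 of 29 in Fut9 lay within 200 nt of one (27.6%), 5 of 30 in Grik3 (16.7%), 6 of 26 in Rims2 (23.1%) and 11 of 46 in Rnf17 (23.9%). In all genes with sites on both days this share was 18.2%. The median distance from a day 0 site to the nearest day 3 site was 314 nt in Fut9, 627 nt in Rnf17, 693 nt in Rims2 and 3144 nt in Grik3, against 635 nt in those genes. From day 3 to day 0 the medians were 295 nt in Fut9, 206 nt in Rnf17, 426 nt in Rims2 and 420 nt in Grik3, against 609 nt in those genes. Grik3 had 36 day 0 and 20 day 3 sites, so the longer distance from day 0 than from day 3 follows in part from the numbers.

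**Figure D3:**
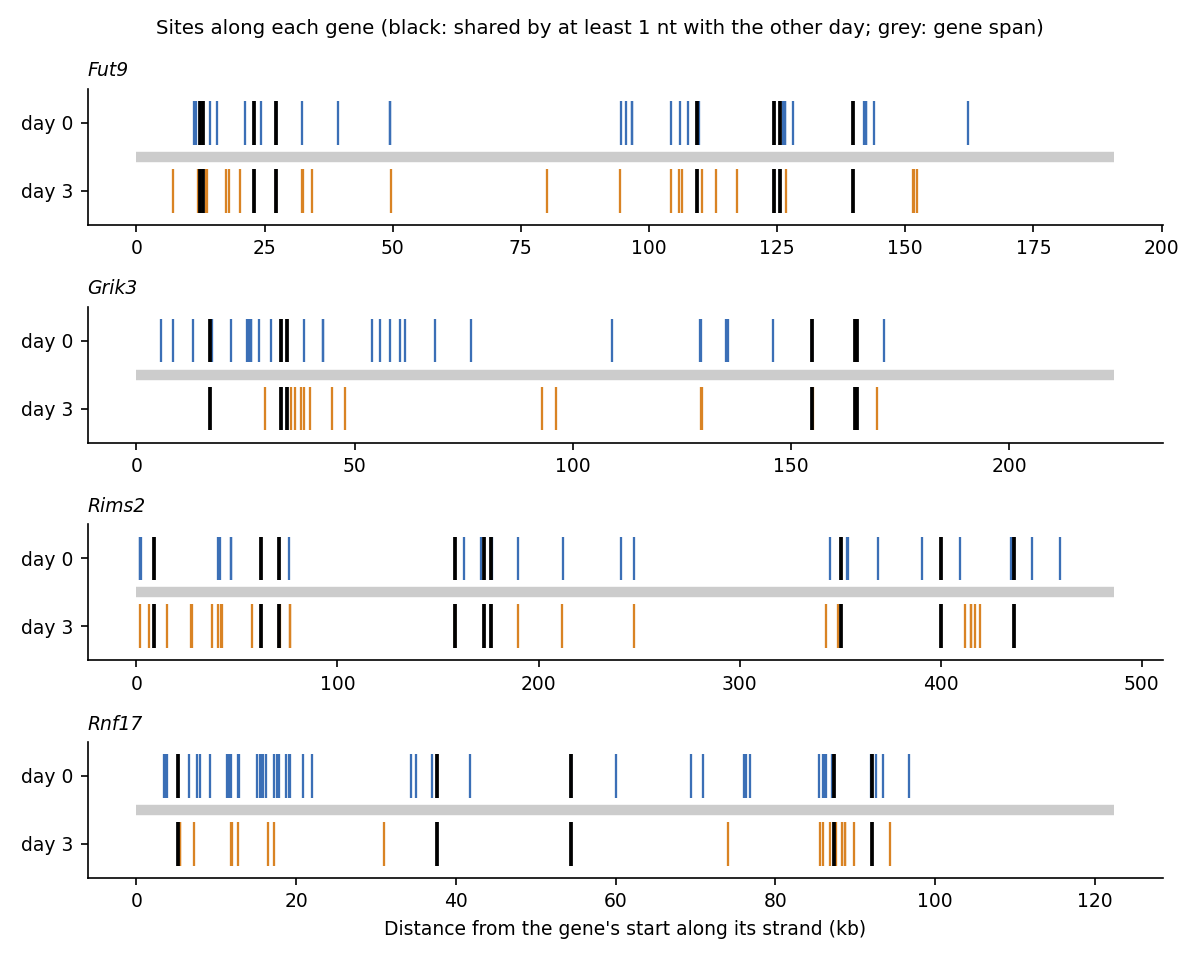
Each vertical line is a binding site, placed by its distance in kb from the start of the gene along its strand (horizontal axis), with day 0 above and day 3 below the grey bar of the gene span; black lines share at least 1 nt with a site of the other day. The same empty stretch of Rims2, from 248 kb to at least 343 kb, appears on both days, and the crowd of day 0 sites near the start of Rnf17 is sparser on day 3.

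Along the genes, some stretches held no listed site on either day. In Fut9 no listed site lay between 49.5 and 94.6 kb from the start on day 0, and on day 3 the largest gap ran from 49.6 to 80.2 kb. The lists skipped 6 numbers within each of these 2 gaps. In Rims2 the gap ran from 248 to 345 kb on day 0 and from 248 to 343 kb on day 3, and the lists skipped 3 numbers within it on each day. Within Rims2, 12 of 35 day 0 sites (34.3%, 19.1 to 52.2) and 20 of 35 day 3 sites (57.1%, 39.4 to 73.7) lay in the part of the gene nearest its start when the span is cut into 3 equal parts. In Fut9 these were 15 of 37 (40.5%, 24.8 to 57.9) and 16 of 33 (48.5%, 30.8 to 66.5). The intervals of both days overlap in both genes.

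Most Grik3 sites lay towards the start of the gene on both days. In the part nearest the start lay 24 of 36 sites on day 0 (66.7%, 49.0 to 81.4) and 11 of 20 on day 3 (55.0%, 31.5 to 76.9). In all named protein-coding genes over 100 kb this held for 36.4% of day 0 sites and 38.7% of day 3 sites. The day 0 interval lies above that share, and the day 3 interval includes it. The median site lay 48.4 kb from the start on day 0 and 46.3 kb on day 3. The first listed site lay at 5.60 kb on day 0 and at 16.8 kb on day 3. The 10 kb with most day 3 sites began at 29.4 kb and held 7 of the 20 day 3 sites, where day 0 had 5. The 10 kb with most day 0 sites began at 25.4 kb and held 9 day 0 sites, where day 3 had 3. Both stretches were picked as the fullest of a day, and they overlap.

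In Rnf17, 17 of the 51 day 0 sites lay within the 10 kb that begin 11.3 kb from the start, and day 3 had 5 there. On day 3, 12 of 25 sites lay within the 10 kb that begin at 85.6 kb, where day 0 had 10. The stretch near the start thus held fewer sites on day 3 and the far stretch about as many as on day 0. In the part nearest the start lay 30 of 51 sites on day 0 (58.8%, 44.2 to 72.4) and 11 of 25 on day 3 (44.0%, 24.4 to 65.1). In the part farthest from it lay 12 of 51 (23.5%, 12.8 to 37.5) and 12 of 25 (48.0%, 27.8 to 68.7). These intervals overlap, and the stretches of 10 kb were picked as the fullest of each day.

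The median place of the Rnf17 sites was at 18.0% of the gene on day 0 and at 60.5% on day 3, a difference of 42.5 percentage points. Among the 150 named genes with at least 20 sites on each of the 2 days, the median size of this difference was 4.68 points, and 1 gene, Usp34, named after its value was seen, had a larger one. The sites of Rnf17 form a near and a far group, so that the median jumps between them. By the mean place the difference was 10.0 points in Rnf17, exceeded in size by 22 of the 150 genes, and -9.86 points in Rims2, exceeded by 24. For Fut9, Grik3 and Rims2 the median place on day 3 minus that on day 0 was -8.68, -0.939 and -6.51 points.

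**Figure D4:**
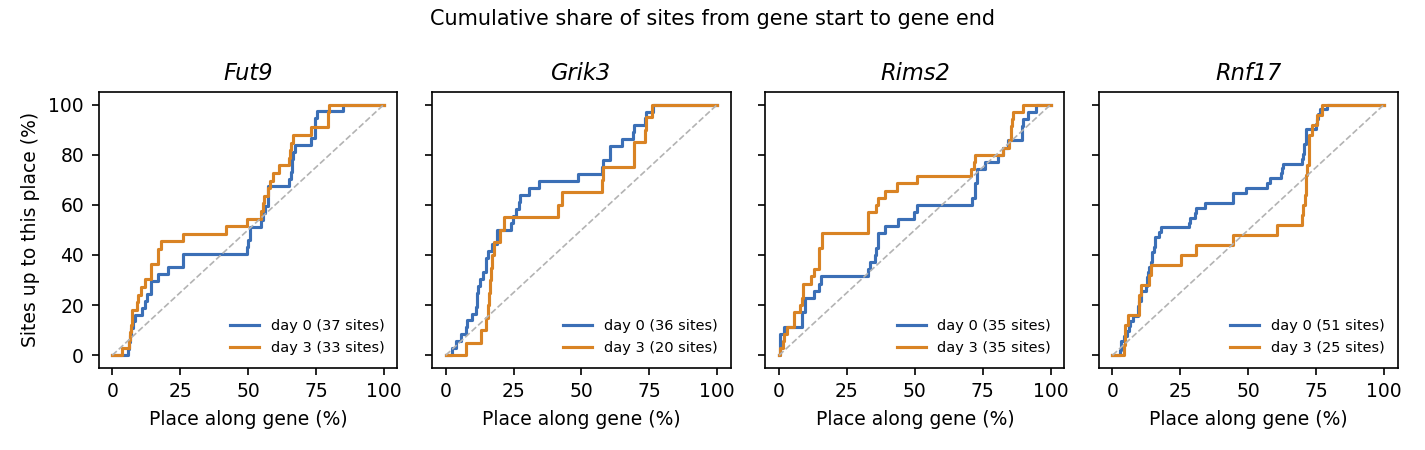
Each panel plots the cumulative percentage of a gene's sites (vertical axis) against the place along the gene from start to end in percent (horizontal axis), for day 0 and day 3; the dashed line is an even spread. In the part nearest the start lie 44.0% of day 3 sites against 58.8% of day 0 sites in Rnf17, and 57.1% against 34.3% in Rims2.

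The distance from the last listed site to the end of the span is given as description only, since it was not computed for other genes. The last site of Fut9 lay 28.4 kb before the end of the span on day 0 and 38.4 kb before it on day 3. For Grik3 these distances were 52.7 and 54.2 kb, for Rims2 26.9 and 49.4 kb, and for Rnf17 25.6 and 28.0 kb. Sites seldom formed tight groups. With sites at most 50 nt apart joined, the 51 day 0 sites of Rnf17 gave 49 clusters, the 37 of Fut9 gave 35, the 36 of Grik3 gave 35 and the 35 of Rims2 gave 34.

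The pattern of sites on day 0 and day 3 and none on day 10 was uncommon among well-covered genes. Without a minimum of sites, 456 of the 3744 genes with sites on both earlier days had it. Of the 698 genes with sites on both earlier days and at least 20 over both, 32 had none on day 10, 4.58%, and of the 296 named protein-coding genes over 100 kb among them 14 had none, 4.73%. Set against day 0, the day 3 share of these 32 genes was smaller by the interval in 20 and larger in 2, and the interval left 10 undecided. Among all 724 genes with at least 20 sites over both days, 17.1% had a smaller share and 34.0% an interval clear of equality in either direction. Since the 32 were picked by the absence of day 10 sites, this difference was not tested. Fut9, Rims2 and Grik3 were among the 10 undecided and Rnf17 among the 20. Platr22, a long non-coding RNA, with 5 and 39 sites, and Cecr2, with 3 and 22, were the 2 with a larger share, named here after their values were seen.

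Of the 32, the gene with most sites was a unitary pseudogene (ENSMUSG00000031325) with 105 sites on day 0 and 2 on day 3. A protein-coding gene (ENSMUSG00000047146) with 66 and 24 followed. Both are given by ID because the naming rule used here left them without a symbol. Bcat1, which transfers the amino group of branched-chain amino acids, held 67 and 2 sites, and Nr5a2, a nuclear receptor of stem cells, 46 and 2. Dnah8, a dynein heavy chain of sperm tails, held 34 and 12. Fut9, Rims2, Grik3 and Rnf17 had at least 20 sites on day 3, unlike Bcat1, Nr5a2 and Dnah8. The members shared this with ENSMUSG00000047146, Platr22 and Cecr2, which had 24, 39 and 22. Just outside the pattern, with 1 site on day 10, lay Cobl with 140 and 4 sites, Aff1 with 70 and 10, Sh3gl2 with 57 and 5, Tex14 with 47 and 1, and Tdh with 24 and 10. Each of these 5 had fewer day 3 sites for its day 0 sites than any of the 4 members.

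**Figure D5:**
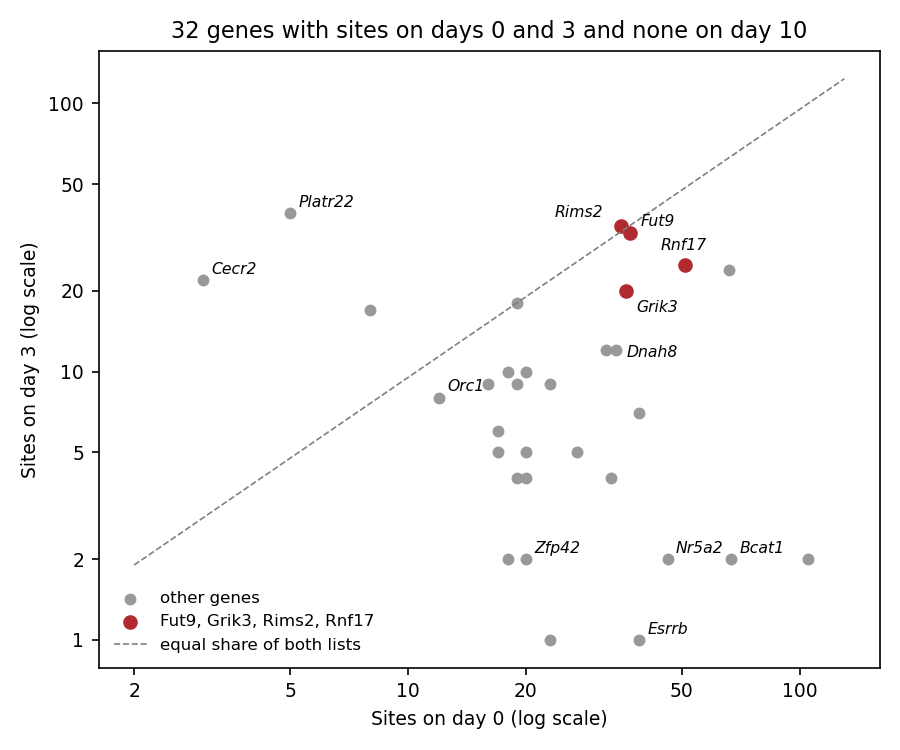
Each point is 1 of the 32 genes with sites on day 0 and day 3, at least 20 over both, and none on day 10, placed by its sites on day 0 (horizontal, log scale) and on day 3 (vertical, log scale); the dashed line marks equal shares of both lists. Rims2 and Fut9 lie next to the line at 35 and 35 and at 37 and 33 sites, Grik3 and Rnf17 below it, and Bcat1, Nr5a2 and Esrrb far below it.

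The genes most like the 4 members were sought by the split of a gene's share over the 3 days, among 1692 genes with at least 20 sites in all. The members together had 57.2% of their summed share on day 0 and 42.8% on day 3. The smallest total variation distance to this split, where 0 is identity and 1 no overlap, was that of Orc1, a subunit of the origin recognition complex, with 12, 8 and 0 sites (0.0156). Arhgef18 followed with 19, 14 and 3 sites (0.0344), then Kat2b, a histone acetyltransferase, with 12, 8 and 2 (0.0377), and Rif1, a factor of telomeres and replication timing, with 35, 27 and 6 (0.0403). The fifth was a protein-coding gene that the naming rule used here left without a symbol, with 33, 25 and 7 sites (0.0451). The members' own distances ran from 0.0563 for Fut9 over 0.0589 for Grik3 and 0.0849 for Rims2 to 0.0876 for Rnf17. The measure rests on 3 pooled values per gene.

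Other genes of fucose and Lewis glycan synthesis did not follow Fut9 as a group. Of 32 genes listed, 11 had a site on some day. Fut9 itself was chosen for its numbers and is left out of the following counts. Against day 0, the day 10 share of the other 10 was larger in 1, smaller in 1 and undecided in 8, beside 7.33% larger and 10.5% smaller among all 7451 genes with a site on either day. The gene with a larger share was Fut8, the enzyme of core fucosylation, with 5, 5 and 65 sites, 5.20 times its day 0 share (2.12 to 16.6). The smaller share was that of B4galt6, a lactosylceramide synthase, with 17, 9 and 7 sites, 0.165 times (0.0578 to 0.418). The median log2 ratio of the 10, with a pseudocount of 1, was -0.53 for day 10 against day 0, where that of all genes was -0.32. Fut4, another enzyme that can make Lewis x, had no site under its symbol. For day 3 against day 0, all 7 other genes with a site were undecided, beside 3.84% larger and 4.30% smaller among all genes, and the median was -0.77 where that of all genes was 0.07. Apart from Fut9, Fut8 and B4galt6, the genes of this list held at most 5 sites on any day, so these medians rest largely on few sites.

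Among 20 genes of ionotropic glutamate receptors and their auxiliary subunits, 8 had a site on some day and Grik3 held nearly all of those of the earlier days. Without Grik3, the list held 4 sites on day 0, 3 on day 3 and 31 on day 10. Of the last, 27 lay in Gria3, an AMPA receptor subunit with none before and the 1 gene with a larger share on day 10. Grik5, another kainate subunit, held 1, 1 and 2 sites, and Grik4 0, 0 and 1. Grik1 and Grik2 had no site under their symbols. Without Grik3, all 4 genes with a site were undecided for day 3 against day 0, with a median log2 ratio of -0.43 beside 0.07 for all genes. For day 10 against day 0, 5 of 6 were undecided and none was smaller, beside 10.5% of all genes, and the median was -0.53 beside -0.32. Apart from Grik3 and Gria3, the genes of this list held at most 2 sites on any day, so these medians rest on very few sites.

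Of 32 genes of the presynaptic active zone and vesicle release, 11 had a site. Without Rims2, the 1 gene with a smaller share on day 10 among 7 with a site was Cacna1a, a calcium channel subunit of synapses, with 16, 2 and 0 sites. It was also the 1 gene of the list with a smaller share on day 3, at a ratio of 0.132 (0.0147 to 0.559). No gene held a larger share on either later day, and 9 were undecided on day 3 and 6 on day 10. Erc1, a scaffold that binds RIM proteins, held 6, 4 and 29 sites, and its ratio of 1.93 for day 10 was undecided (0.789 to 5.70). Rims3, a short RIM protein, held 0, 1 and 0 sites, and Rims1, the closest relative of Rims2, none under its symbol. Without Rims2, the median log2 ratio against day 0 was 0.87 for day 3 (all genes 0.07) and -1.91 for day 10 (all genes -0.32). The first was positive although the sites of these genes numbered 29 on day 0 and 20 on day 3. The median weighs each gene alike, and Rims3, Bsn, Ppfia1 and Cacna1b each had 0 sites on day 0 and 1 on day 3. Both medians rest largely on genes with very few sites and are not read as a change of the group. Among all genes 4.30% had a smaller share on day 3 and 10.5% on day 10.

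Among 29 genes of Tudor domain proteins, the piRNA pathway and other germ cell functions, 10 had a site. Without Rnf17, 8 had a site on day 0 or day 10, and the day 10 share was smaller in 4, larger in 1 and undecided in 3, beside 10.5% smaller and 7.33% larger among all genes. The median log2 ratio was -2.43, where that of all genes was -0.32. The smaller shares were those of Tex14, a protein of germ cell bridges, with 47, 1 and 1 sites, Tdrd12, a piRNA factor, with 11, 2 and 0, Akap1, an anchoring protein with a Tudor domain, with 6, 0 and 2, and Dazl, a germ cell RNA-binding protein, with 4, 0 and 0. Tex14 and Dazl are in the list as other germ cell genes. Without Rnf17, Tex14 held 47 of the list's 89 day 0 sites. Tdrd3, a Tudor protein that is not restricted to germ cells, held 7, 10 and 47 sites, 2.69 times its day 0 share on day 10 (1.21 to 7.05). On day 3, again without Rnf17, the share was smaller in 3 of 8 genes, larger in 1 and undecided in 4, beside 4.30% smaller and 3.84% larger among all genes, and the median was -1.43 beside 0.07. The larger share belonged to Snd1, a Tudor protein of many tissues, with 13 and 29 sites and a ratio of 2.35 (1.18 to 4.92). Tex14 stood on day 3 at 0.0224 times its day 0 share (0.000555 to 0.131), an interval that lies below that of Rnf17.

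Marker genes of the cell types the samples could hold gave the following totals on day 0, day 3 and day 10. The 7 naive stem cell genes held 165, 8 and 6 sites, the 4 primed state genes 0, 48 and 0, and the 6 heart and mesendoderm genes 0, 4 and 344. The 4 members together held 159, 113 and 0, numbers that the choice of the members set. Germ cell markers were thin, with 4, 0 and 1 sites in 2 of 5 genes, and Ddx4 had no site under its symbol. None of the 5 neuron markers, Tubb3, Map2, Rbfox3, Syt1 and Snap25, had a site under its symbol on any day. RNA levels were not used here. The part that RNA abundance and cell composition play in the site numbers was not tested, and fewer cells of a type and less RNA per cell cannot be told apart in such bulk samples.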

How the data were processed

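SAM68 iCLIP2 was performed on 15 libraries, 5 per day. Per the labels' protocols, cells were crosslinked at 254 nm with 150 mJ/cm2, RNase I left RNA pieces of 50 to 200 nt, and molecular identifiers marked single cDNAs. The submitters' processing notes name bedtools 2.31.1, UMI-tools 1.1.6, STAR 2.7.11a and the build GRCm38.p5, without roles. Which program called the sites, and how libraries were pooled, is not given in the sources used here. Each deposited list holds the sites of 1 day. The authors assigned them to genes and dropped those in overlapping genes, per the file headers, and the deposited score is 0 for every site and switched off.

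Sites were taken by Ensembl ID. An ID took the symbol of a RefSeq gene (GRCm38.p6) of its own class if that span alone contained 80% or more of the ID's sites. A symbol that fell to several IDs was given to none of them. This named 7402 of 7949 IDs, and the IDs left without a symbol may be known genes. The start of a gene is the upstream end of its RefSeq span. Coordinates are site centres, counted from 1. Shares have Clopper-Pearson intervals, ratios of shares conditional binomial ones and densities exact Poisson ones. The lists give no floor for genes at 0. Counting and intervals were tested on simulated data. Python 3.11.15, NumPy 2.4.6, pandas 2.3.3 and SciPy 1.17.1 were used.

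The members, gene lists and tests were chosen with earlier results of these data known. Named were the members, list genes, the 10 genes of the same pattern with most sites (at most 2 unnamed ones are given by ID), the 5 most alike and the 5 with most sites among those with 1 site on day 10. Alternatives changed the overlap rule, the scaling, the joining of nearby sites, the gene assignment and the site minimum.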

Additional observations from a re-analysis of the deposited data

How the results depend on the processing

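The lists pool the libraries of a day, so no library could be left out. No paired analysis was possible because each list gives only the pooled sites of a day. Of 75 alternative values computed, 66 stayed within the interval of the reported value or within 1.5 times the reported count. Counting only identical positions as shared, the 4 genes together had 10.7% of day 0 sites met on day 3, in place of 17.6%. Without scaling by list length, the ratio for Grik3 was 0.556 (0.305 to 0.986) and lay clear of equality, which made 2 such members in place of 1. The number of genes with the pattern was 76 with a minimum of 10 sites, 13 with 40 and 40 where 1 site on day 10 was allowed. By the mean in place of the median, an alternative chosen after seeing the data, the place of the sites moved by 10.0 points in Rnf17, -4.97 in Fut9, -9.86 in Rims2 and 5.87 in Grik3, the last with the opposite sign. A stricter site threshold and the bases near the sites were not run.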
